A study of Mus musculus with 10 samples.

Results

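The genes described here encode 38 subunits of the ionotropic receptors for glutamate, GABA and glycine, the ligand-gated ion channels that carry fast synaptic transmission. They were chosen by symbol: 17 glutamate receptor subunits, 16 GABA receptor subunits and 5 glycine receptor subunits, each matched to 1 Ensembl ID among the 57186 IDs of the deposited count table. The list does not hold every subunit of these families, and others were not analysed here. Bulk RNA sequencing covered the neuroretina of female C57BL6/JRj mice on day 14 after intravitreal injection. The CNP group received 1 µL of graphitic carbon nitride nanoparticles (1 mg/mL) suspended in phosphate-buffered saline, PBS, and the control group received PBS alone, so both groups share the injection. Each group held 5 libraries, numbered 2, 6, 10, 14 and 18 in PBS and 4, 8, 12, 16 and 20 in CNP; values listed library by library below follow that order. The labels do not state that each library is a separate animal, since the design text counts CNP mice but PBS eyes, so p-values measure the spread between these libraries. The question is which receptor subunits the retina expresses, in what ratios, and whether they differ after the nanoparticles.

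Glutamate receptors of the AMPA, kainate and NMDA classes are cation channels that excite the cell, and GABA-A and glycine receptors are chloride channels that usually inhibit it. In the retina, photoreceptors and bipolar cells release glutamate, and amacrine cells release GABA or glycine. OFF bipolar cells sense photoreceptor glutamate through AMPA and kainate receptors, and ON bipolar cells through a metabotropic receptor. Ganglion cells sense bipolar cell glutamate through AMPA and NMDA receptors. The rho subunits form the slow GABA receptors, once called GABA-C, that are known above all from the axon terminals of bipolar cells.

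Total counts per library ran from 3328518 to 5428697. A count of 0 in 1 library allows up to 0.553 to 0.901 CPM (counts scaled to library size), counting error only. These limits are on raw totals, while the CPM values below also carry a scaling factor between libraries (TMM). Retinal markers were present in every library: the summed level of 4 rod genes lay between 10672 and 18699 CPM and that of 6 bipolar cell genes between 986 and 1488 CPM. Markers of tissues outside the neuroretina were present too, at 186 to 7284 CPM for 5 lens genes and 240.1 to 1245 CPM for 4 pigment epithelium genes. The receptor subunits together took 0.0245% to 0.0692% of the counts of a library. The libraries fell into sets by their number. In the 5 numbered up to 10 (PBS 2, 6 and 10, CNP 4 and 8) the share was 0.0537% or more, and in the 5 numbered above 10 (PBS 14 and 18, CNP 12, 16 and 20) it was 0.0386% or less. The labels do not say what the numbers stand for, and each set holds libraries of both groups.

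The upstream sequences of 4 genes are shown: Gabrr1, Gabrr2 and Glrb because their transcripts stood highest, and Gabrr3 as the lower-expressed relative of the rho pair, on another chromosome. Each window ends at the base before the most upstream start that RefSeq or GENCODE M21 annotates, and holds what lies between there and base 250 before the RefSeq start. The sequences are RefSeq's, in the table's build, printed 5′ to 3′ on the gene's strand. Capitals mark TAATCC, the core sequence bound by the homeodomain factors CRX and OTX2, or GGGCGG, the GC box, on either strand; the strings do not overlap in these windows.
Gabrr1 (GRCm38.p6 chr4:33132306-33132520, + strand): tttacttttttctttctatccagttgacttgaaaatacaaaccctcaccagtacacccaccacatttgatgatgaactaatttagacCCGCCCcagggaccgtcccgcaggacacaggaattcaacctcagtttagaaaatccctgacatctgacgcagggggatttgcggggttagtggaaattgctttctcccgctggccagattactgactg
Gabrr2 (GRCm38.p6 chr4:33062862-33062998, + strand): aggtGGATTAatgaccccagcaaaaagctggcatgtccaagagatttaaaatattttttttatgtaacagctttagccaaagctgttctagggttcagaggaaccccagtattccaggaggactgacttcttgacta
Gabrr3 (GRCm38.p6 chr16:59407132-59407331, + strand): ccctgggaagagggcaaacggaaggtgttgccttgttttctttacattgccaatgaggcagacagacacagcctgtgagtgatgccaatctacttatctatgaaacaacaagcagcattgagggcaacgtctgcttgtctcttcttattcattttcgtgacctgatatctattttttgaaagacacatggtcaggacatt
Glrb (GRCm38.p6 chr3:80913661-80913910, - strand): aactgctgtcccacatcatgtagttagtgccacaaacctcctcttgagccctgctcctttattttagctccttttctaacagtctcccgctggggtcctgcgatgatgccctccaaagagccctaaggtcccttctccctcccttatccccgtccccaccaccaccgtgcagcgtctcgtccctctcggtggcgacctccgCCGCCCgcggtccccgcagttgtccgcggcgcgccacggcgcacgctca
The window of Gabrr2 holds TAATCC on the opposite strand, those of Gabrr1 and Glrb hold GGGCGG on the opposite strand, and that of Gabrr3 holds neither. Over the 250 bases before the start, 6.25% of 32851 RefSeq promoters hold TAATCC and 32.7% hold GGGCGG. A promoter was listed for 29 of the 38 genes. The match describes letters only. The Glrb window is GC-rich, at 62.4% with 20 CpG pairs, and the rho windows hold 40.9% to 47.0% G or C with 0 to 6 CpG pairs.

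The retina libraries held transcripts of 36 of the 38 subunits. Of the 38, 28 had a count in all 10 libraries and 21 passed the filter on low counts and could be tested. Another 10 had over 10 counts in all but did not pass. The remaining 7 were at the edge of detection or below it. Gabra6, the alpha subunit of cerebellar granule cells, and Gabrp, a subunit of epithelial tissues, had no count in any library. Their upper limit was 0.0677 CPM on raw totals when the libraries are pooled. Gabrq had 1 count, Gabre 3, Glra4 6, Grin3b 7 and Grin2c 8 in all libraries together. Exons of Grin3b overlap those of a gene on the other strand, Tmem259, and the sources used here do not give whether strand was used in counting.

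Levels of different genes are compared here per kilobase of gene model (CPM per kb, mean ± SD over the 10 libraries). The reads may come mainly from transcript ends, since the primers were barcoded at the poly(A) tail, and plain CPM is then the closer measure, so the order is given on both scales. Per kilobase the first place went to Gabrr1 at 34.2 ± 8.86 CPM per kb, followed by Glrb at 27.8 ± 6.57 and Gabrr2 at 25.0 ± 7.56. In plain CPM Glrb came first at 129 ± 30.6, above Gabrr1 at 78.2 ± 20.3 and Gabrr2 at 52.7 ± 15.9. Gabrr1 exceeded Glrb in 10 of 10 libraries per kilobase and in 0 of 10 in plain CPM, so their order rests on the scale, while Glrb exceeded Gabrr2 in 7 of 10 per kilobase and 10 of 10 in plain CPM. The next in line per kilobase were Gabra3 at 6.56 ± 2.53, Gabrd at 5.37 ± 1.34 and Grik1 at 5.07 ± 1.97 CPM per kb, with Gabrd above Grik1 in only 6 of 10 libraries. Further down, neighbours in the order changed places between libraries: Gria1 exceeded Gabrr3 in 7, Glra2 exceeded Gria4 in 6, Gria4 exceeded Gabra4 in 6 and Gria3 exceeded Grin1 in 5 of 10. Of the 10 highest per kilobase, 8 were also among the 10 highest in plain CPM.

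**Figure D1:**
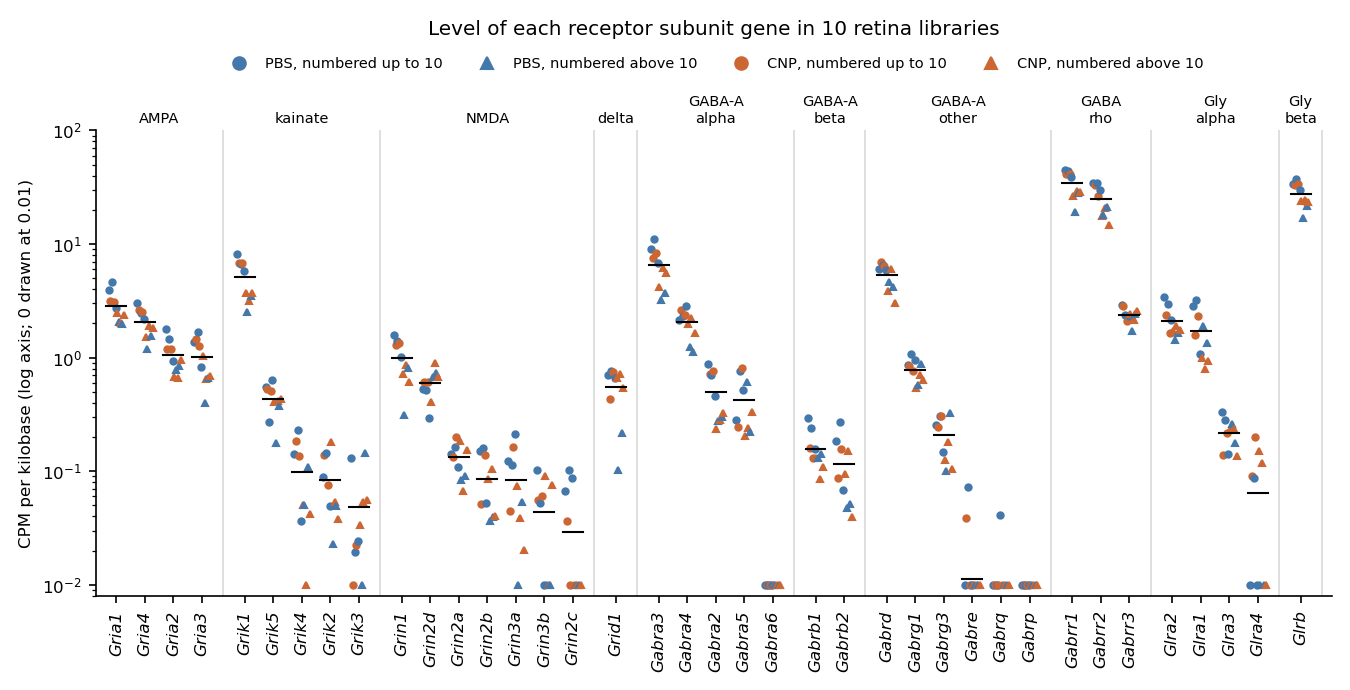
CPM per kb (log axis) of each subunit gene in each of 10 libraries, grouped by role; bars are means, colours are treatment groups, circles and triangles are libraries numbered up to 10 and above 10, and values of 0 are drawn at 0.01. Gabrr1, Gabrr2 and Glrb stand highest, with means of 25.0 to 34.2. The mean of the triangles lies below that of the circles for 20 of the 21 tested genes. All triangles lie below all circles for 9 of them, beside 10.8% of all genes tested.

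The AMPA class was led on average by Gria1, which encodes GluA1. Its level was 23.8, 28.0, 16.6, 12.4 and 12.04 CPM in the PBS libraries and 19.2, 18.5, 15.1, 12.1 and 14.4 CPM in the CNP libraries. Gria4, which encodes GluA4, measured 18.9, 15.4, 13.7, 7.55 and 9.76 CPM in PBS and 16.6, 15.9, 9.63, 11.9 and 11.4 CPM in CNP. In both genes PBS 14 and PBS 18 and the CNP libraries above 10 were low, and the groups overlapped. Gria2, whose edited protein GluA2 keeps calcium out of the channel, ranged from 10.2 to 27.8 CPM and Gria3 from 3.93 to 16.4 CPM. The share of the AMPA sum was 41.0% ± 3.11 for Gria1, 30.1% ± 3.46 for Gria4, 14.9% ± 2.02 for Gria2 and 14.0% ± 2.84 for Gria3 per kilobase (SD, n = 10). The Gria2 gene model is long, at 15.5 kb against 6.04 kb for Gria1, and in plain CPM its share was 28.7% ± 3.46, close to the 30.7% ± 2.45 of Gria1. The log2 ratio of Gria1 to Gria2 counts ran from -0.23 to 0.51, so their order in plain CPM changed between libraries. Gria4 held 23.5% ± 2.92 in plain CPM. Gria4 exceeded Gria2 in 10 of 10 libraries per kilobase and in 1 of 10 in plain CPM, so their order rests on the scale. All 4 AMPA subunits were therefore present, none of them at under 9.006% of the class in any library on the scale per kilobase.

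The kainate class consisted mostly of Grik1, which encodes GluK1, known from OFF bipolar cells of the mouse retina. Grik1 measured 55.3, 44.3, 38.6, 16.9 and 23.4 CPM in PBS and 45.7, 45.6, 25.0, 21.2 and 24.9 CPM in CNP. The libraries numbered up to 10 held 38.6 to 55.3 CPM and those above 10 held 16.9 to 25.0 CPM, so the sets did not overlap while the treatment groups did. Its share of the kainate sum was 88.0% ± 2.66 per kilobase and 88.3% ± 3 in plain CPM (SD, n = 10). Grik5, which encodes the high-affinity subunit GluK5, measured 2.87, 1.39, 3.27, 0.906 and 1.95 CPM in PBS and 2.74, 2.61, 2.11, 2.14 and 2.24 CPM in CNP. These values rest on 3 to 17 counts per library. Grik2, Grik3 and Grik4 summed to 52, 19 and 29 counts over all libraries.

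Among NMDA receptor genes the obligatory subunit Grin1 had the highest mean, above Grin2d in 7 of 10 libraries per kilobase. Grin1 measured 15.3, 13.7, 9.82, 3.02 and 7.81 CPM in PBS and 12.6, 13.1, 6.92, 8.33 and 5.97 CPM in CNP, lowest in PBS 14. Grin2d, which encodes the slowly deactivating subunit GluN2D, measured 3.54, 3.46, 1.964, 4.53 and 4.88 CPM in PBS and 4.02, 4.02, 2.71, 5.95 and 4.47 CPM in CNP. It was the one tested subunit whose mean was higher in libraries above 10 (2.71 to 5.95 CPM) than in those up to 10 (1.964 to 4.02 CPM). Its exons share 643 bases with an antisense gene model, Gm45441, which held 825 counts against 174 for Grin2d and lay at 11.8 to 19.4 CPM up to number 10 and 19.8 to 28.1 CPM above it. Its level is uncertain for that reason, since reads of overlapping genes cannot be told apart without strand. Grin2a and Grin2b, the main partners of Grin1 in the brain, held 2.38 ± 0.801 and 2.13 ± 1.22 CPM (SD, n = 10), and Grin2a exceeded Grin2b in 7 of 10 libraries in plain CPM. Grin3a had 0 to 12 counts per library. The delta receptor gene Grid1 measured 4.21, 4.501, 3.93, 0.604 and 1.30 CPM in PBS and 2.56, 4.42, 3.91, 4.29 and 3.23 CPM in CNP. PBS 14 and PBS 18 lay below the rest, on only 2 and 4 counts.

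The rho genes made up most of the GABA receptor transcripts. Gabrr1 measured 103, 99.9, 88.8, 43.8 and 64.7 CPM in PBS and 93.6, 94.9, 60.2, 66.9 and 65.6 CPM in CNP. Gabrr2 measured 73.0, 72.5, 62.2, 37.8 and 44.6 CPM in PBS and 69.4, 56.1, 37.0, 43.3 and 31.1 CPM in CNP. Both were at 56.1 CPM or more in every library numbered up to 10, and their sets by library number did not overlap. Gabrr3 was lower and steadier, at 7.25 to 12.3 CPM. The rho genes held 79.3% ± 1.84 of the summed level of the 16 GABA subunits per kilobase and 66.9% ± 2.15 in plain CPM (SD, n = 10). This share lay between 76.4% and 82.6% in single libraries per kilobase, while the level of the rho sum moved from 38.8 to 82.7 CPM per kb. Shares are of the listed subunits only.

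Gabra3 led the listed alpha subunits, which form the GABA binding site with a beta subunit. Gabra3 measured 35.4, 43.8, 26.4, 12.7 and 14.6 CPM in PBS and 29.4, 33.0, 16.3, 24.3 and 21.6 CPM in CNP. Gabra4, an alpha subunit of extrasynaptic receptors, measured 12.98, 14.2, 17.2, 7.55 and 6.83 CPM in PBS and 15.9, 14.5, 12.04, 13.6 and 9.94 CPM in CNP. Per kilobase Gabra3 held 68.0% ± 4.49 and Gabra4 22.3% ± 4.41 of the listed alpha sum (SD, n = 10). Gabra2 measured 1.81 to 6.74 CPM, and Gabra5 had 2 to 13 counts per library. Gabrd, whose delta subunit replaces gamma in extrasynaptic receptors, measured 17.4, 18.9, 17.0, 13.3 and 12.04 CPM in PBS and 20.1, 18.5, 11.1, 17.4 and 8.70 CPM in CNP. Gabrg1 measured 6.74, 8.48, 7.42, 4.53 and 6.83 CPM in PBS and 6.58, 6.03, 4.21, 5.48 and 4.97 CPM in CNP. Gabrd exceeded Gabrg1 in 10 of 10 libraries on either scale. Gabrg3 had 4 to 21 counts per library.

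The listed beta subunits were scarce. Gabrb1 measured 4.05, 3.29, 2.18, 1.81 and 1.95 CPM in PBS and 2.19, 1.81, 1.81, 1.19 and 1.49 CPM in CNP, on 5 to 24 counts per library. Gabrb2 had 7, 10, 2, 1 and 1 counts in PBS and 3, 5, 2, 4 and 1 counts in CNP. Neither passed the filter on low counts, and no fold change is given for them. Exons of Gabrb1 share 46 bases with those of Gabra4 on the other strand.

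Glycine receptor transcripts were dominated by the beta subunit. Glrb, which anchors the receptor at the synapse through gephyrin, measured 156, 173, 140.1, 79.4 and 101 CPM in PBS and 154, 157, 111, 113 and 108 CPM in CNP. Among the alpha subunits, which bind glycine, Glra2 measured 10.8, 9.35, 6.77, 4.53 and 5.21 CPM in PBS and 7.49, 5.23, 5.42, 5.95 and 5.47 CPM in CNP. Glra1 measured 6.91, 7.79, 2.62, 4.53 and 3.25 CPM in PBS and 3.84, 5.63, 2.41, 1.91 and 2.24 CPM in CNP. Glra2 exceeded Glra1 in 7 of 10 libraries per kilobase, so their order is not firm, and Glra3 had 5 to 18 counts per library. The beta subunit stood at 7.08 ± 1.44 times the summed alpha level per kilobase and 10.4 ± 2.08 times in plain CPM (SD, n = 10). In CNP this ratio lay close together, at 7.91 ± 0.2498 per kilobase, against 6.25 ± 1.69 in PBS (SD, n = 5 each; not tested).

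Several of the genes are neighbours on their chromosomes and many of these neighbours differed widely in total count. Gabrr2 and Gabrr1 stand side by side on chromosome 4 with no coding gene between them in GENCODE M21, and both were abundant. Gabra3 lies on the X chromosome beside Gabrq, with Gabre 1 coding gene away; their total counts were 1239, 1 and 3. On chromosome 5, Gabrg1, Gabra2, Gabra4 and Gabrb1 form a cluster with total counts of 282, 185, 580 and 103. Gabra6 at 0 and Gabrb2 at 36 counts are adjacent on chromosome 11. Glrb and Gria2, of different receptor classes, are adjacent on chromosome 3, at 129 and 16.2 CPM in plain CPM.

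No receptor subunit passed the test between CNP and PBS. Of the 21 subunits tested, edgeR's quasi-likelihood test called 0 at an adjusted p under 0.05, where it called 0% of all 11499 genes, and 0 had an unadjusted p under 0.05, where 1.19% of all genes did. DESeq2 and limma-voom also called 0 subunits, with 0 at an unadjusted p under 0.05 by either. The groups did not overlap for 0 subunits and for 0.287% of all genes tested. The log2 fold changes, CNP over PBS, were positive for 6 and negative for 15 subunits, with a median of -0.11, beside a median of -0.0036 over all genes. With library number above 10 as a covariate, 14 were positive and 7 negative and the median was 0.084, so the balance of signs turned with that term. Without PBS 2 the median was 0.056 and without PBS 6 it was 0.019, both also positive. The 95% interval lay within 2-fold in either direction for 18 of the 21 subunits, beside 94.2% of all genes tested, and within 1.5-fold for 5, namely Gabrr1, Gabrr3, Glrb, Gabrd and Gria4. For Glra1, Grid1 and Gabra2 the interval reached past 2-fold. Differences inside these intervals are not excluded by these libraries.

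**Figure D2:**
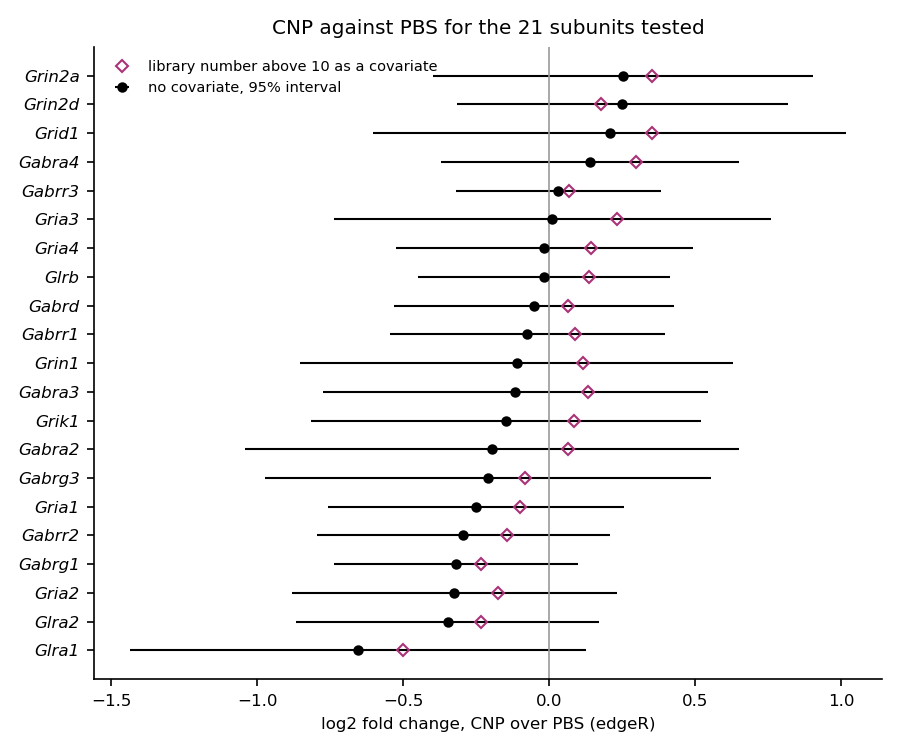
log2 fold change, CNP over PBS, of the 21 tested subunits (edgeR; black points with 95% intervals) and the same value with library number above 10 as a covariate (open diamonds). All intervals include 0, and the diamonds lie to the right of the points for all but Grin2d.

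The subunits with the highest levels are given first. Gabrr1 averaged 80.1 ± 25.3 CPM in PBS and 76.2 ± 16.6 CPM in CNP (SD, n = 5 each), with a log2 fold change of -0.076 (SE 0.22, 95% interval -0.55 to 0.40). Glrb averaged 130.0 ± 38.8 and 129 ± 24.5 CPM, with -0.017 (SE 0.20, 95% interval -0.45 to 0.41). Gabrr2 had -0.29 (SE 0.23, 95% interval -0.80 to 0.21), Grik1 -0.15 (SE 0.31, 95% interval -0.82 to 0.52) and Gabra3 -0.12 (SE 0.31, 95% interval -0.78 to 0.55). The AMPA subunits ran from -0.33 for Gria2 to 0.011 for Gria3, and Grin1 had -0.11 (SE 0.34, 95% interval -0.85 to 0.63). The smallest p belonged to Glra1, at 0.0924 unadjusted and 0.9997 adjusted by edgeR. Glra1 averaged 5.02 ± 2.26 CPM in PBS and 3.20 ± 1.54 CPM in CNP, with -0.66 (SE 0.36, 95% interval -1.44 to 0.12). PBS 10 at 2.62 CPM lay below CNP 8 at 5.63 CPM and CNP 4 at 3.84 CPM. Its log2 ratio of mean CPM, CNP over PBS, was -0.29 in the set up to 10 and -0.83 in the set above. Its unadjusted p by edgeR fell to 0.0208 without CNP 8 and to 0.0342 without PBS 10, and that of Gabrg1 to 0.0369 without PBS 14; the smallest adjusted p in those fits was 0.9414. The glycine alpha subunit Glra2 had -0.35 (SE 0.24, 95% interval -0.87 to 0.17), and the gamma subunit Gabrg1 -0.32 (SE 0.19, 95% interval -0.74 to 0.10). Within the sets up to 10 and above 10, the log2 ratio of mean CPM, CNP over PBS, was -0.046 and 0.24 for Gabrr1, -0.14 and -0.15 for Gabrr2, -0.0093 and 0.30 for Glrb and 0.036 and 0.72 for Gabra4. It was -0.27 and 2.0 for Grid1, where PBS 14 and PBS 18 were the low libraries, on only 2 and 4 counts.

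Receptor levels divided by library number within both treatment groups. The boundary at 10 was set with earlier results of these data known, so the values are a description without a test. Of the 21 tested subunits, 20 had a higher mean in libraries numbered up to 10, and 9 were lower in all 5 libraries above 10 than in any up to 10; 10.8% of all genes tested were lower in that way. Those 9 were Gria1, Gria4, Grik1, Grin1, Gabra2, Gabra3, Gabrr1, Gabrr2 and Glrb. The ratio of means, up to 10 over above 10, had a median of 1.59 over the subunits and 1.01 over all genes tested, and ran from 0.754 for Grin2d to 2.49 for Gabra2. Scaled on library totals alone, the median ratio was 1.82 over the subunits and 1.17 over all genes tested. Grin1 lay at 9.82 to 15.3 CPM up to 10 and 3.02 to 8.33 CPM above. Glrb lay at 140.1 to 173 and 79.4 to 113 CPM. Gabrr3 overlapped between the sets, at 9.04 to 12.3 CPM up to 10 and 7.25 to 10.9 CPM above.

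Markers of retinal cell types moved with the same split, to different extents. Single markers of inner retinal neurons were lower in all 5 libraries above 10 than in any up to 10 for 5 of 7 amacrine, 5 of 7 ganglion and 3 of 6 bipolar cell genes. Of all genes tested, 10.8% were lower in that way, and for 20.6% the sets did not overlap, lower or higher. The amacrine genes summed to 384 to 665 CPM up to 10 and 202 to 302 CPM above. Among bipolar genes, Trpm1, the channel of ON bipolar cells, lay at 62.0 to 151 CPM up to 10 and 35.9 to 50.7 CPM above, and Grm6, their glutamate receptor, at 48.9 to 60.4 CPM up to 10 and 33.1 to 43.6 CPM above. The sum of the bipolar genes, at 1232 to 1416 and 986 to 1488 CPM, overlapped between the sets, and most of it was Pcp2, which lay at 908 to 1077 CPM up to 10 and 774 to 1226 CPM above. Among ganglion cell genes, the transcription factor gene Pou4f1 lay at 79.4 to 102 CPM up to 10 and 37.1 to 49.4 CPM above and Rbpms at 33.0 to 40.3 CPM up to 10 and 19.9 to 25.7 CPM above, while Nefl, which takes the largest share of that sum, overlapped at 669 to 899 CPM up to 10 and 689 to 993 CPM above. Of the 4 horizontal cell genes 0 and of the 5 Müller glia genes 1 were lower in this way. Rod genes went the other way, with 2 of 4 higher in all 5 libraries above 10. Their sums were 10672 to 13719 CPM up to 10 and 13811 to 18699 CPM above. Of 4 pigment epithelium genes, 2 were higher in that way, Rpe65 and Ttr, with sums of 240.1 to 647 and 694 to 1245 CPM. Most of that sum was Ttr, at 226 to 614 CPM up to 10 and 653 to 1157 CPM above. Tyrp1 overlapped, at 2.08 to 3.88 and 2.73 to 11.5 CPM, and so did Best1, at 0.402 to 1.46 and 0 to 0.651 CPM. The sums of 4 cone genes did not overlap and were higher above 10, at 3092 to 3351 and 3710.2 to 4403 CPM. The single markers named here were chosen after their values were seen, and no gene of these lists was at 0 over all libraries. The part of these markers in the receptor values was not tested. In whole tissue, fewer cells of a type and less RNA per cell cannot be told apart.

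**Figure D3:**
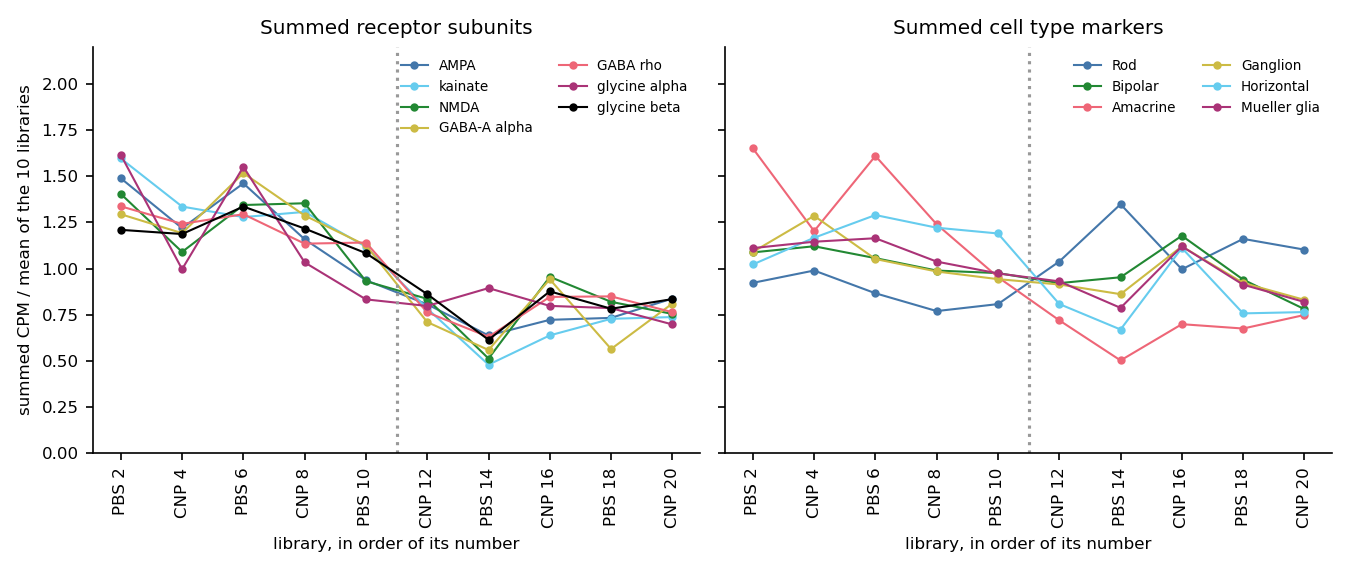
Summed CPM of each receptor class (left) and of each marker list (right) in the 10 libraries, divided by its own mean over the libraries; the dotted line separates libraries numbered up to 10 from those above, and lines join points only to guide the eye. Kainate, rho and glycine beta sums lie above 1 in all 5 libraries up to 10 and below 1 in all 5 above, in both treatment groups, while rod markers lie at or below 1 up to 10.

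Ratios between subunits of one class passed no adjusted test between CNP and PBS. Of 19 ratios, 14 had at least 10 counts per library on average in both subunits and were compared over all assignments of the libraries to groups of 5. None passed after Benjamini-Hochberg adjustment over the 14 (smallest adjusted p 0.306 by the exact permutation test, two-sided; the smallest unadjusted p this design allows is 0.00794). The log2 ratio of Gabrr1 to Gabrr2 counts was 0.50, 0.46, 0.51, 0.21 and 0.54 in PBS and 0.43, 0.76, 0.70, 0.63 and 1.08 in CNP. The groups overlapped, and the CNP minus PBS difference was 0.27 (95% interval -0.0057 to 0.55; exact permutation p = 0.0397, 0.306 adjusted). This was the 1 ratio with an unadjusted p under 0.05, and no ratio had one when libraries were permuted within the sets by number. Within the sets the difference was 0.10 up to 10 and 0.42 above. Without CNP 4 the exact permutation p was 0.00794, and leaving out any other single library put it above 0.05. Gria4 to Gria2 differed by 0.32 (95% interval -0.0022 to 0.65; exact permutation p = 0.0635, 0.306 adjusted). Gria1 to Gria2 differed by 0.11 (95% interval -0.21 to 0.44; exact permutation p = 0.452, 0.704 adjusted). The ratio of Glra1 to Glrb differed by -0.65 (95% interval -1.39 to 0.092; exact permutation p = 0.0873, 0.306 adjusted), with -0.16 in the set up to 10 and -1.10 in the set above. The differences of the other 10 ratios ran from -0.39 to 0.43. Between the sets by number, the mean log2 ratio of Gria1 to Gria2 was 0.070 and 0.13 and that of Gabrr1 to Gabrr2 was 0.53 and 0.63, up to 10 and above 10. Other ratios moved more, in particular Grik1 to Grik5 with 4.15 and 3.52, Grin2a to Grin1 with -2.24 and -1.58 and Grin2d to Grin1 with -1.92 and -0.46. Of these, the sets did not overlap for Grin2d to Grin1, at -2.26 to -1.63 up to 10 and -1.31 to 0.56 above. This ratio is uncertain, since Grin2d counts may include reads of the overlapping antisense gene model Gm45441, which was also higher in the libraries above 10.

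**Figure D4:**
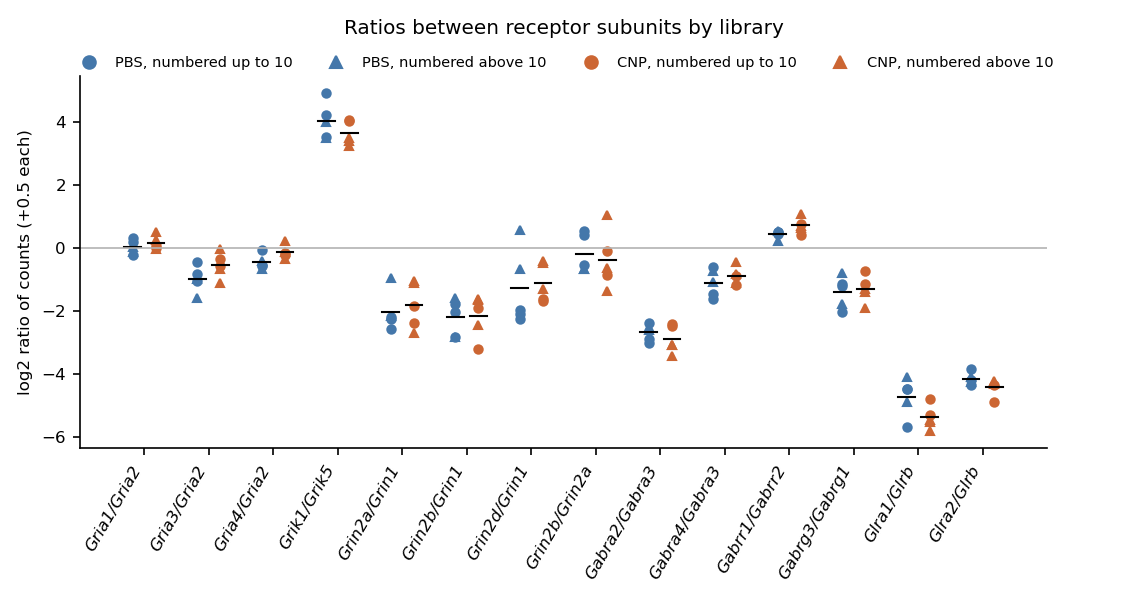
log2 ratio of counts (0.5 added to each) for the 14 subunit ratios tested, by library; colours are treatment groups, circles and triangles are libraries numbered up to 10 and above 10, and bars are group means (n = 5). The groups overlap in all 14, with Grik1/Grik5 highest and the glycine alpha/beta ratios lowest.

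Genes that assemble, anchor or modify these receptors gave no call either. At an adjusted p under 0.05 edgeR called 0 of them, where it called 0% of all 11499 genes tested. At an unadjusted p under 0.05 there were 0, where 1.19% of all genes tested stood. Of 14 auxiliary subunits of AMPA and kainate receptors, 11 were tested, 3 positive and 8 negative, with a median log2 fold change of -0.076. With library number above 10 as a covariate, 8 of the 11 were positive and the median was 0.10, so the balance of signs turned here too. The most abundant were the transmembrane AMPA regulators Cacng3 at 50.9 ± 13 CPM (SD, n = 10), with -0.059 (95% interval -0.52 to 0.40), and Cacng5 at 14.9 ± 6.01 CPM, with -0.082 (95% interval -0.77 to 0.61). Of 17 excitatory scaffold genes, 14 were tested, 6 positive and 8 negative, median -0.034, and with the covariate 9 were positive, median 0.015. Nsf, the ATPase that takes SNARE complexes apart and binds GluA2, had -0.074 (95% interval -0.42 to 0.28). Dlg4, which encodes the scaffold PSD-95 and is also found in photoreceptor terminals, had 0.030 (95% interval -0.25 to 0.31). All 12 genes of inhibitory anchoring and trafficking were tested, 6 positive and 6 negative, median -0.019. Map1b, whose protein binds rho subunits, had 0.034 (95% interval -0.33 to 0.39), and Gabarapl1, a relative of the GABA-A trafficking protein GABARAP, had -0.047 (95% interval -0.25 to 0.16).

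The chloride transporters set the direction of current through GABA and glycine receptors. Slc12a5, which encodes the chloride exporter KCC2, averaged 149 ± 56.0 CPM in PBS and 132 ± 27.6 CPM in CNP (SD, n = 5 each), with a log2 fold change of -0.18 (95% interval -0.69 to 0.32). Slc12a2, the chloride importer NKCC1, averaged 2.60 ± 0.886 and 2.69 ± 0.811 CPM, with 0.049 (95% interval -0.59 to 0.69). Adarb1, which encodes the enzyme ADAR2 that edits the GluA2 pore site, averaged 27.8 ± 6.10 CPM (SD, n = 10), with 0.017 (95% interval -0.40 to 0.43), and Adar had -0.33 (95% interval -0.94 to 0.28). Gene counts do not show the editing itself.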

How the data were processed

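Polyadenylated RNA of 10 neuroretina samples (5 PBS, 5 CNP) was reverse transcribed with barcoded primers that carry unique molecular identifiers and sequenced after a 10x Genomics library kit, per the labels' protocols. The authors deposited 1 table of raw counts per Ensembl gene; the submitters' processing notes name STAR, STARsolo and GRCm39. Tool versions, annotation, strand use and any collapsing of molecular identifiers are not stated there; uncollapsed copies would make counting error larger than shown.

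Symbols came from an Ensembl table (51880 of 57186 IDs matched). Counts were filtered with filterByExpr (minimum count 10, minimum total 15), scaled by TMM and tested with edgeR 4.0.16 (quasi-likelihood, two-sided, no covariate) in R 4.3.3, with Benjamini-Hochberg adjustment over 11499 genes and a threshold of 0.05. CPM values are TMM-scaled; gene model lengths are exon unions of GENCODE M21 (GRCm38). Ratios are log2 of counts plus 0.5, compared by exact permutation over libraries; the interval beside a ratio is from the pooled SD of both groups. Library pairs within groups differed beyond counting noise (chi-square per degree of freedom 3.99 to 32.6), so none was counted as a duplicate. The test was checked on simulated counts. Alternatives used DESeq2 1.42.0, limma 3.58.1, other scalings, filters, a covariate and leaving out each library. The labels pair no libraries. Library-by-library values are given for the 2 leading subunits of each role per kilobase and for any subunit with an unadjusted p under 0.05 or without overlap between groups (none); other genes of the lists are named by highest mean CPM. The members, lists and the division at library 10 were chosen with earlier results of these data known. Some subunits of these families are not reported here.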

Additional observations from a re-analysis of the deposited data

Results flagged for a closer look

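In 70 sets of 5 libraries (each tested subunit and each tested ratio in each treatment group), the highest or lowest library was compared with its nearest neighbour, and 3 stood apart; chance marks about 1 in 20. All were ratios, and no single subunit had a library that stood apart by this measure. The log2 ratio of Grin2a to Grin1 was -0.93 in PBS 14, above -2.56, -2.18, -2.26 and -2.16 in the other PBS libraries; it rests on 5 and 10 counts. The log2 ratio of Gabrr1 to Gabrr2 was 0.21 in PBS 14, below 0.50, 0.46, 0.51 and 0.54 in the others, on 145 and 125 counts. The log2 ratio of Glra2 to Glrb was -4.89 in CNP 8, below -4.34, -4.32, -4.22 and -4.27 in the other CNP libraries, on 26 and 783 counts. PBS 14 also had the lowest summed level of the receptor subunits and of amacrine cell markers (202 CPM), and the highest of rod markers (18699 CPM).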

How the results depend on the processing

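Under every alternative run, edgeR, DESeq2 and limma-voom called 0 genes, 0 receptor subunits and 0 genes of the other lists, and the permutation tests called 0 ratios. Genes at an unadjusted p under 0.05 numbered 137, against 422 with no filter on low counts, 51 with a mean of at least 50 counts, 272 with library number above 10 as a covariate and 117 to 301 with 1 library left out (highest without PBS 14). Receptor subunits among them numbered 0, against 2 without the filter (Gabrb1 and Grin2c, at low counts) and 0 to 1 with 1 library left out (Glra1 without CNP 8 or PBS 10, Gabrg1 without PBS 14). Ratios at an unadjusted p under 0.05 numbered 1, against 0 for medians, 0 within the sets by library number and 0 to 3 with 1 library left out (0 without PBS 2, 6, 14 or 18 or CNP 8 or 12, highest without PBS 10). At least 1 CPM per kb was reached by 14 subunits on average, and at least 1 plain CPM by 28.

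Small fold changes turned sign. With the library number covariate the log2 fold change became 0.14 for Gria4, 0.084 for Grik1, 0.12 for Grin1, 0.064 for Gabra2, 0.13 for Gabra3, 0.063 for Gabrd, 0.089 for Gabrr1 and 0.14 for Glrb. On library totals Gria3 had -0.018, and with limma-voom Gria4 had 0.00067 and Glrb 0.026. With 1 library left out the subunits that turned sign ran as follows: Gria3 -0.17 to 0.29, Gria4 -0.15 to 0.15, Grik1 -0.32 to 0.061, Grin1 -0.32 to 0.10, Grid1 -0.0076 to 0.40, Gabra2 -0.43 to 0.077, Gabra3 -0.28 to 0.14, Gabrd -0.17 to 0.091, Gabrr1 -0.23 to 0.030, Gabrr3 -0.053 to 0.12, Glrb -0.15 to 0.11. The ratio of Grin2b to Grin1 became -0.010 with 2 counts added and -0.036 within the sets, Grin2d to Grin1 became -0.12 within the sets, and Gabrg3 to Gabrg1 -0.10 by medians. With 1 library left out these ratios turned sign: Grin2b/Grin1 -0.12 to 0.29, Grin2d/Grin1 -0.063 to 0.64, Grin2b/Grin2a -0.55 to 0.058, Gabrg3/Gabrg1 -0.069 to 0.24. The cause was not tested for the covariate, scaling and tool; the others rest on fewer libraries or another summary. No paired analysis was possible because the groups share no replicate number.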

Other observations

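The split by library number reached some of the genes that work with the receptors, again in both treatment groups and given without a test. Of the 11 tested auxiliary subunits, 4 were lower in all 5 libraries above 10 than in any up to 10 (10.8% of all genes tested were). The same held for 0 of 14 tested excitatory scaffold genes and 1 of 12 genes of inhibitory anchoring and trafficking. It held for 0 of 2 chloride transporters and 1 of 2 editing genes. Sets that did not overlap, lower or higher, were found for 20.6% of all genes tested, 1 of the 14 scaffold genes and 2 of the 12 inhibitory genes. Cacng3 lay at 55.3 to 68.7 CPM up to 10 and 29.9 to 48.2 CPM above, and Shisa9, which modulates AMPA receptors, at 14.6 to 20.1 and 6.34 to 12.2 CPM. The editing enzyme gene Adar lay at 9.95 to 12.5 and 4.05 to 6.46 CPM, and the gephyrin gene Gphn at 14.5 to 23.4 and 9.03 to 13.6 CPM. Other genes of these lists went the other way: Dlg4 lay at 326 to 376 CPM up to 10 and 381 to 479 CPM above, and Gabarapl2, a GABARAP relative of the autophagy pathway, at 57.2 to 85.3 and 93.0 to 115 CPM. The genes of this paragraph were chosen after their values were seen.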
